A study of Mus musculus with 8 samples.

Results

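The Fc receptors studied here are 7 of the 32285 genes in the deposited matrices: Fcgr1, Fcgr2b, Fcgr3, Fcgr4, Fcer1g, Fcer2a and Fcmr. They were listed by symbol, and the list was made with earlier results of these data known. Levels were taken in macrophage-like, monocyte-like, dendritic-like, NK-like and B-like barcodes, the 5 classes described below. A barcode stands for 1 droplet or well and was kept if it held at least 500 unique molecular identifiers (UMIs), no fewer than 300 genes and a mitochondrial share of 10% or less.

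The cells were leukocytes sorted for CD45, stained with an antibody to CD45.2, from the submandibular gland, a major salivary gland, and from its draining lymph nodes. The mice were 4 of genotype SS and 4 of genotype control, about 12 weeks old. The labels do not spell out SS, name no strain and do not say whether mice were pooled, and the glands but not the nodes were digested with collagenase type II. The 4 gene expression samples are SS gland, control gland, SS lymph node and control lymph node, with 1 sample each, and 4 T cell receptor samples were not analysed here. The expression matrices are named C1, C2, C3 and C4, and no label or header ties them to a sample. No genotype or tissue was therefore assigned, no test was made, and the values of the 4 libraries stand side by side. Levels are in CPM: a gene's UMIs were divided by all UMIs of the class in that library and scaled to 1000000, and a 95% interval stands in parentheses. Intervals cover counting error only and not the spread between mice.

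Fc receptors bind the constant part of antibodies and tie antibody binding to the cells of innate and B cell immunity. In mice the IgG receptors encoded by Fcgr1, Fcgr3 and Fcgr4 activate the cell through the common gamma chain, encoded by Fcer1g, which recruits the kinase Syk. Fcgr2b encodes the inhibitory IgG receptor, which recruits the phosphatase SHIP-1. Fcer2a encodes CD23, the low-affinity IgE receptor of mature B cells, and Fcmr encodes the receptor for IgM. Macrophages are known to carry both activating and inhibitory IgG receptors, B cells Fcgr2b alone among the IgG receptors, and NK cells the Fcgr3 product.

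All 7 symbols matched the RefSeq table for GRCm38.p6, the patch level of the mm10 build that the submitters' processing notes name. Fcgr2b (chr1:170960558-170976071), Fcgr4 (chr1:171018926-171029761), Fcgr3 (chr1:171051169-171065915) and Fcer1g (chr1:171229572-171234349) lie within 274 kb of chromosome 1. Fcmr lies on the same chromosome at chr1:130865777-130880790, Fcgr1 at chr3:96282909-96293969 and Fcer2a at chr8:3680280-3694174. The span of Fcer2a overlaps that of Trappc5, and counting by strand was not given in the sources used here. Fcgr2b and Fcgr3 share closely similar exons for their extracellular part, so reads from those stretches may be split or lost between them.

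The promoter windows of Fcgr1, Fcgr3 and Fcgr4, each 250 bases before to 50 after an annotated start, are shown because these 3 activating receptors were high in the same macrophage-like barcodes but differed from each other among macrophage-like clusters. The windows come from RefSeq, build GRCm38.p6: chr3:96293920-96294219 on the minus strand for Fcgr1, chr1:171059354-171059653 on the minus strand for Fcgr3 and chr1:171018676-171018975 on the plus strand for Fcgr4. Capitals mark matches to the motif GAGGAAG, searched on both strands.
Fcgr1: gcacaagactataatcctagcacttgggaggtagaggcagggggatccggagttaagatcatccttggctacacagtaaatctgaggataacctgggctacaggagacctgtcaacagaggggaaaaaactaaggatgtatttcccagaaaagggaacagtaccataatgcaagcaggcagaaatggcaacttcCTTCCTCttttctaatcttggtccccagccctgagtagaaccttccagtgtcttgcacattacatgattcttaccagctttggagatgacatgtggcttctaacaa
Fcgr3: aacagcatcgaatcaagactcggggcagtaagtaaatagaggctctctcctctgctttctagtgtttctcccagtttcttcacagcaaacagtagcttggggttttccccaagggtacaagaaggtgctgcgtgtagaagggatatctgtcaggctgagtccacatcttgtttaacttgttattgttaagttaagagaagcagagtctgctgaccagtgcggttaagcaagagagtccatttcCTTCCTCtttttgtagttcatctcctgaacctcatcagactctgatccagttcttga
Fcgr4: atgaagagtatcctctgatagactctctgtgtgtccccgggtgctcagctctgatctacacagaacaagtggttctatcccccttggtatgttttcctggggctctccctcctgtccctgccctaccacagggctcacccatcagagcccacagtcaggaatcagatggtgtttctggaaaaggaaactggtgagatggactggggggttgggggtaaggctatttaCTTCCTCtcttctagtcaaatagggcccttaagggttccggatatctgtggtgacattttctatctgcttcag

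GAGGAAG, a form bound by the myeloid ETS factor PU.1, appears as its reverse complement in all 3 windows. Its match starts 56 bases before the window's start site in Fcgr1, 7 before it in Fcgr3 and 23 before it in Fcgr4. The start site of the Fcgr3 window is that of a transcript inside the annotated gene span, and in the other Fcgr3 window of the table the match starts 16 bases before the start site. Of 32851 promoter windows of 300 bases, 13.6% hold it, and no window of the other 4 receptor genes does. A match describes the letters of the window and does not show binding.

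Total depth was 37902916 to 77819179 UMIs per library, and 5067 to 8532 barcodes passed the filters before doublet removal. Of these barcodes, 31 to 85 sequences were shared between any pair of libraries. The doublet caller removed 166 barcodes from C1 and 116 from C4, but called 0 in C2 and 2 in C3. Those 2 libraries were thus left almost unfiltered for doublets, which are likely to remain in them. Clustering left out the 7 receptor genes and 12 other Fc receptor genes, so that no member helped to define a class. In the order C1 to C4 there were 2376, 430, 19 and 4 macrophage-like barcodes. The monocyte-like class held 54, 84, 60 and 12, the dendritic-like class 49, 36, 50 and 27, the NK-like class 1422, 379, 19 and 33, and the B-like class 62, 10, 735 and 1932. Levels are given where a class held at least 20 barcodes in a library. The labelled sort bears on leukocytes, and markers of each class were present in it. Clusters were named by these same markers, so high sums of a class's own markers follow from the naming. The summed macrophage markers reached 34706 CPM in macrophage-like barcodes of C1 and 27902 CPM in those of C2, and the summed B cell markers 5860 to 7594 CPM in B-like barcodes. The summed monocyte markers were 7654 to 9428 CPM in monocyte-like, the dendritic markers 1530 to 2686 CPM in dendritic-like and the NK markers 2416 to 8042 CPM in NK-like barcodes. Macrophage markers in C1 also summed to 5297 CPM in monocyte-like barcodes. In dendritic-like barcodes of C1 they summed to 3999 CPM, above the 1530 CPM of the dendritic markers. T cell markers summed to 514, 702 and 733 CPM in NK-like barcodes of C1, C2 and C4.

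The class with each member's highest level is counted here as a description of each library. Beside it stands the share of genes highest in that class, among genes with at least 50 UMIs over the measured classes. The members were counted without this minimum: in C3 Fcgr4 had 43 UMIs over the measured classes, and in C4 Fcgr3 had 11. In C1, 4 of 7 members had their highest level in a macrophage-like, monocyte-like or dendritic-like class, where 43.8% of these genes did. Of the others, 2 had it in B-like barcodes (22.4%), and Fcer1g had it in NK-like barcodes (33.9%). In C2, which held too few B-like barcodes, 5 of 7 were highest in a myeloid class (55.4% of genes) and 0 in NK-like barcodes (44.6%), and Fcer2a and Fcmr had no UMI in any measured class. In C3, without measured macrophage-like or NK-like barcodes, 5 were highest in a myeloid class (53.2%) and 2 in B-like barcodes (46.8%). In C4, where only dendritic-like, NK-like and B-like barcodes were measured, 0 were highest in dendritic-like barcodes (27.6%), 3 in B-like barcodes (36.7%) and 2, Fcgr3 and Fcer1g, in NK-like barcodes (35.7%), and Fcgr1 and Fcgr4 had no UMI.

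**Figure D1:**
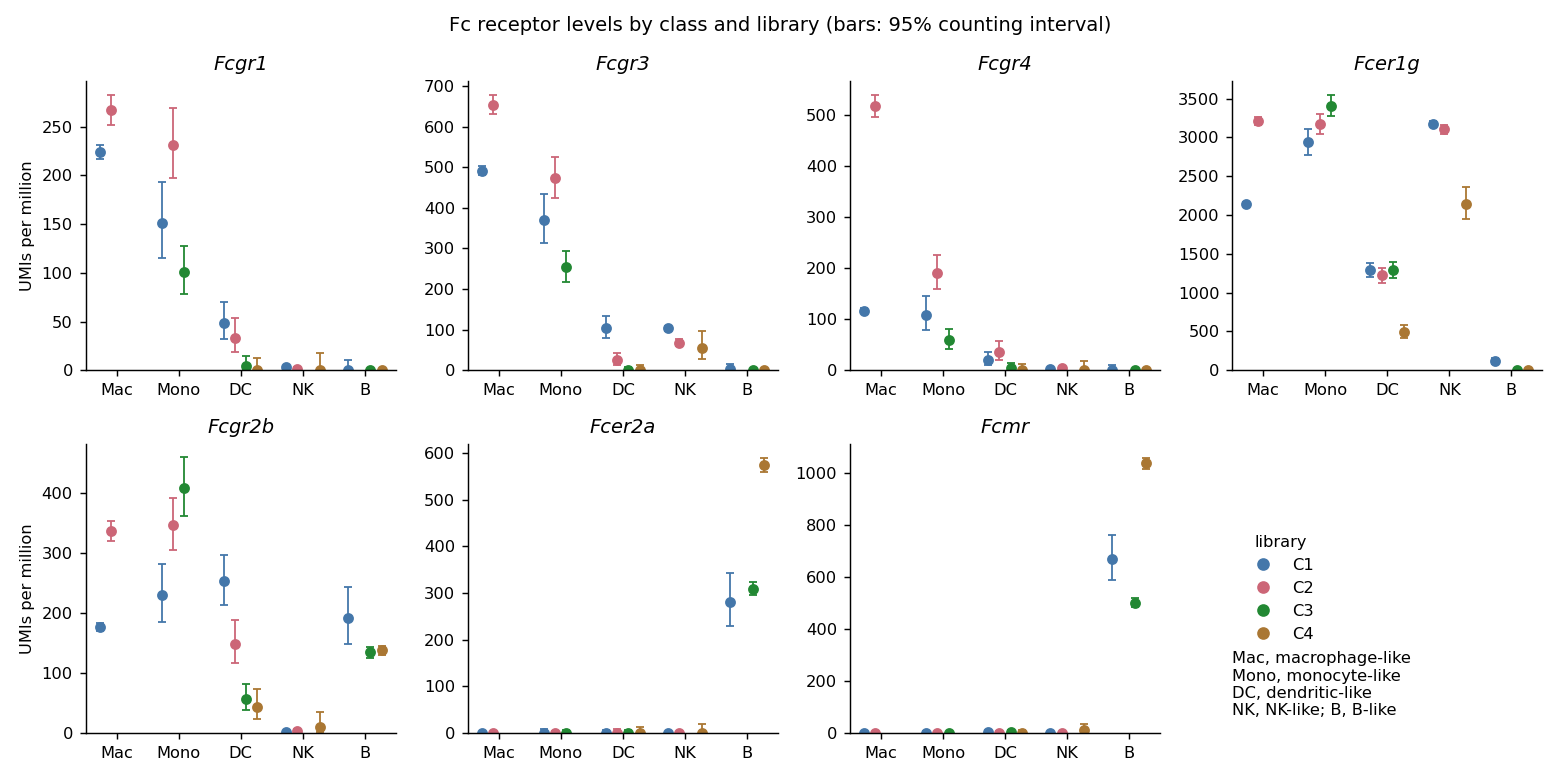
Levels of the 7 Fc receptor genes in UMIs per 1000000 (y axes, linear, starting at 0 and differing between panels) in 5 classes (x axis), 1 point per library, with 95% Poisson intervals. The points of Fcgr1, Fcgr3 and Fcgr4 are highest in macrophage-like and monocyte-like barcodes, those of Fcer2a and Fcmr lie near 0 outside B-like barcodes, and the highest point of Fcgr2b is at 191 or above in 4 of the 5 classes and at 9.78 in NK-like barcodes.

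Fcgr1, which encodes CD64, the high-affinity IgG receptor, was a macrophage and monocyte transcript. Its level was 224 CPM (217 to 231) in macrophage-like barcodes of C1 and 267 CPM (252 to 283) in those of C2. Monocyte-like barcodes had 151 CPM (115 to 194) in C1, 231 CPM (198 to 269) in C2 and 101 CPM (78.6 to 128) in C3. The macrophage and monocyte intervals overlapped in C2 but not in C1. Dendritic-like barcodes had 48.5, 33.1, 3.94 and 0 CPM in C1 to C4, and B-like barcodes had no Fcgr1 UMI in C1, C3 or C4, which allows up to 8.45, 0.478 and 0.346 CPM. At least 1 Fcgr1 UMI was found in 66.9% of macrophage-like barcodes of C1 and 77.4% of those of C2, against 0.452% and 0.176% of T-like barcodes, which should lack it. Median depths were 6404 and 9410 UMIs in the macrophage-like barcodes and 6031 and 4949 in the T-like ones, and after thinning to 3100 UMIs the macrophage-like shares were 47.6% and 53.9%.

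Fcgr3, which encodes CD16, was likewise highest in macrophage-like barcodes, with 492 CPM (481 to 503) in C1 and 654 CPM (631 to 679) in C2. In monocyte-like barcodes it stood at 371 CPM (314 to 435) in C1, 473 CPM (425 to 526) in C2 and 253 CPM (217 to 294) in C3, so the order of the classes held in both C1 and C2 beyond the counting intervals. Unlike Fcgr1, it was also present in NK-like barcodes, as described below.

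Fcgr4, which encodes the mouse receptor for IgG2 antibodies, was the member that differed most between the macrophage-like barcodes of libraries C1 and C2. Its level was 117 CPM (112 to 122) in C1 and 517 CPM (496 to 539) in C2. It was found in 45.7% and 78.4% of these barcodes, or 28.6% and 69.1% after thinning. Monocyte-like barcodes had 109 CPM (79.0 to 146) in C1, 190 CPM (160 to 224) in C2 and 58.6 CPM (41.8 to 79.8) in C3. The macrophage and monocyte levels of Fcgr4 overlapped within counting error in C1, while in C2 the macrophage level was above the monocyte level.

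Of the 5 members with at least 50 UMIs over the macrophage-like barcodes of libraries C1 and C2, 1 passed 2-fold between the libraries, Fcgr4, which was 4.43-fold higher in C2. Past 2-fold in either direction lay 11% of 10469 genes, and 6.44% were that far above in C2. The other 4 were also higher in C2, Fcgr2b 1.91-fold, Fcer1g 1.5-fold, Fcgr3 1.33-fold and Fcgr1 1.19-fold, against a median log2 ratio of 0.14 over all genes. Fcgr2b also passed 2-fold with the top 5% of doublet scores removed and with libraries clustered alone, at log2 ratios of 1.03 and 1.06. The summed T cell markers in macrophage-like barcodes were 96.5 CPM in C1 and 602 CPM in C2, and their part in the Fcgr4 result was not tested.

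Different clusters made up most of the macrophage-like class in the 2 libraries. Cluster m6, led by the chemokine gene Cxcl9, held 247 of the 430 barcodes of C2 but 24 of the 2376 of C1, most of which lay in clusters m0, m1, m2 and m3. Within m6, Fcgr4 was at 238 CPM (178 to 311) in C1 and 613 CPM (583 to 644) in C2, a 2.57-fold difference where 11.8% of genes passed 2-fold. Cluster m9, led by Ccl8 and Ccl7, had 81.8 CPM in C1 and 439 CPM in C2, a 5.36-fold difference, with 7.91% of genes past 2-fold. Cluster m9 also had a high median depth of 14315 UMIs and a mean doublet score of 0.152, against 0.0385 to 0.0683 in the other macrophage-like clusters. Where 14.2% of genes passed 2-fold, in m1, the level of Fcgr4 was 133 CPM in C1 and 186 CPM in C2, with overlapping intervals. In m4, the cluster of lowest depth with a median of 3034 UMIs and 19.4% of genes past 2-fold, it was 134 CPM and 101 CPM, also with overlapping intervals, so the higher level in C2 was not seen in every cluster.

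Within C1 alone, Fcgr1 and Fcgr4 differed in where they were highest. Cluster m8, led by the interferon-stimulated genes Rsad2 and Ifit2, had the highest Fcgr1, 556 CPM (516 to 598), and the other 9 macrophage-like clusters of C1 lay between 138 and 252 CPM. For Fcgr4, m6 at 238 CPM and m8 at 211 CPM (186 to 237) had overlapping intervals, and the other 8 lay between 66.7 and 134 CPM. Fcgr2b ranged from 126 to 252 CPM and Fcgr3 from 327 to 620 CPM over the same clusters. Fcgr3 in m8 was 481 CPM, inside the range of the others. Fcgr1 was among the 10 leading genes of m8, and Fcgr4 among those of m6 and m9, although no receptor gene was used in the clustering.

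**Figure D2:**
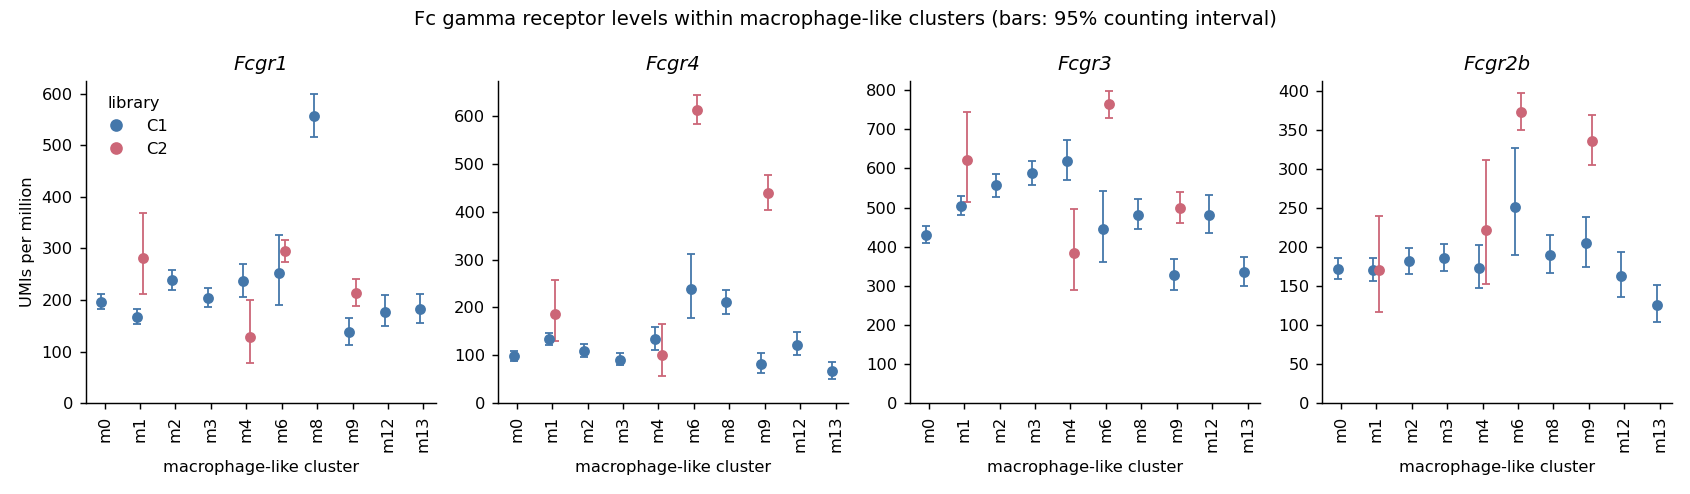
Levels of Fcgr1, Fcgr4, Fcgr3 and Fcgr2b in UMIs per 1000000 (y axes, linear, starting at 0) in macrophage-like clusters (x axis) with at least 20 barcodes, for C1 and C2, with 95% Poisson intervals. Fcgr1 stands out in m8 of C1 at 556, and Fcgr4 in m6 and m9 of C2 at 613 and 439.

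Split by single marker genes instead, macrophage-like barcodes with a Cxcl9 UMI had 237 CPM of Fcgr4 in C1 (46 barcodes) and 592 CPM in C2 (247 barcodes). Those with Mrc1 or Folr2 and no Cxcl9, genes of resident macrophages, had 113 CPM in C1 (111 barcodes) and 466 CPM in C2 (23 barcodes), and those with none of the 3 genes had 114 CPM and 318 CPM. Fcgr4 was thus higher in C2 than in C1 in each of the 3 subsets, with separate intervals. In the same order of subsets, median depths were 7924.5, 7067 and 6377 UMIs in C1 and 11701, 6576 and 6844.5 in C2. Finding a single UMI depends on depth, and the part of depth in these splits was not tested. Fcgr2b was highest in the barcodes with Mrc1 or Folr2, at 261 CPM in C1 and 662 CPM in C2, against 169 CPM and 265 CPM in those with none of the 3 genes, and in C1 its interval overlapped that of the barcodes with Cxcl9 (187 to 283). For Fcgr1 the levels in the 3 subsets lay between 221 and 296 CPM in C1 and between 262 and 281 CPM in C2. Cluster m18, led by Mrc1 and Pf4, stayed unnamed, so its 31 barcodes of C1 are in none of these subsets. They had 153 CPM of Fcgr4 and 394 CPM of Fcgr2b.

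Fcer1g, which encodes the signalling chain shared by the activating receptors and by several NK cell receptors, was present in macrophage-like, monocyte-like, dendritic-like and NK-like barcodes. Macrophage-like barcodes had 2139 CPM (2117 to 2162) in C1 and 3210 CPM (3157 to 3263) in C2. Monocyte-like barcodes stood at 2937, 3171 and 3407 CPM in C1, C2 and C3, and NK-like barcodes at 3176, 3102 and 2146 CPM in C1, C2 and C4. In C2 the macrophage-like and monocyte-like intervals overlapped, and the NK-like interval (3041 to 3163) overlapped the monocyte-like and macrophage-like ones. In C1 the macrophage-like level was below the monocyte-like and NK-like levels. Dendritic-like barcodes had 1287, 1220, 1292 and 497 CPM in C1 to C4. The level of C4 came mostly from cluster m16, led by Fscn1 and Ccl22, which held 22 of its 27 barcodes and had 398 CPM, while cluster m14, led by Cd209a, had 1539, 1562 and 1587 CPM in C1, C2 and C3.

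Fcer1g was also found outside these classes. The 42 barcodes of cluster m17 in C1, an erythroid-like cluster led by Hbb-bs and Hbb-bt, had 2849 CPM (2543 to 3181), above the macrophage-like level there. They also had 207 CPM of Fcgr3, 117 CPM each of Fcgr1 and Fcgr2b and 72.1 CPM of Fcgr4, and the source of these UMIs was not tested. Barcodes with at least 50 and under 200 UMIs, which hold mostly free RNA or debris, had 284, 107, 55.0 and 70.0 CPM of Fcer1g in C1 to C4, while those of C4 had 198 CPM of Fcmr, from 17 UMIs, and 105 CPM of Fcer2a, from 9 UMIs. T-like barcodes had 115, 21.8, 18 and 1.71 CPM of Fcer1g. In B-like barcodes Fcer1g was at 113 CPM in C1, from 3 of 62 barcodes, and at 1.11 and 1.5 CPM in C3 and C4. A UMI of Fcer1g was found in 10.4% of T-like barcodes of C1, or 9.05% after thinning, and in 4.84% of B-like ones there. Whether these UMIs came from the cells themselves was not tested. The summed macrophage markers in the B-like barcodes of C1 were 625 CPM, against 138 and 244 CPM in C3 and C4, and their part was not tested.

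Fcgr2b, the inhibitory receptor, had UMIs in macrophage-like, monocyte-like, dendritic-like and B-like barcodes. Macrophage-like barcodes had 176 CPM (170 to 183) in C1 and 336 CPM (319 to 354) in C2, and monocyte-like barcodes 230, 347 and 409 CPM in C1, C2 and C3. In dendritic-like barcodes it stood at 253 CPM (214 to 298) in C1, 149 CPM (117 to 188) in C2, 57.2 CPM (38.3 to 82.1) in C3 and 42.8 CPM (22.8 to 73.2) in C4. The B-like level was 191 CPM (149 to 243) in C1, 134 CPM (126 to 144) in C3 and 137 CPM (130 to 146) in C4. NK-like barcodes had 2.26, 3.44 and 9.78 CPM in C1, C2 and C4, and the last of these rests on 2 UMIs.

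In C1, Fcgr2b was highest in dendritic-like barcodes, but their interval overlapped those of the monocyte-like (185 to 282) and B-like ones (149 to 243). The dendritic-like barcodes of C1 also carried more macrophage markers than those of the other libraries: the 7 markers summed to 3999 CPM in C1 with none at 0, 513 CPM in C2 with none at 0, 136 CPM in C3 with Apoe at 0, and 32.9 CPM in C4 with 4 at 0, C1qa, C1qb and C1qc among them. Fcgr1 and Fcgr3 in dendritic-like barcodes were likewise highest in C1, though the Fcgr1 intervals of C1 and C2 overlapped. Fcgr3 was at 104, 24.8, 0 and 0 CPM in C1 to C4, and the 0 UMIs of C3 and C4 allow up to 5.92 and 9.87 CPM. The part of the macrophage markers in these levels was not tested.

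The balance of activating and inhibitory IgG receptors was described by the share of Fcgr1, Fcgr3 and Fcgr4 UMIs among theirs plus those of Fcgr2b. UMIs of different genes are captured unequally, so the share is set against other classes and not read as a count of molecules. It was 82.6% (82.0 to 83.1%) in macrophage-like barcodes of C1 and 81.1% (80.2 to 81.9%) in those of C2, although the level of each gene was higher in C2. Monocyte-like barcodes had 73.3% in C1 and 72.1% in C2 but 50.3% (46.0 to 54.5%) in C3, and dendritic-like barcodes 40.7%, 38.5%, 12.1% and 0% in C1 to C4. The last 2 rest on 33 and 13 UMIs. In NK-like barcodes the share was 97.9%, 95.5% and 84.6% in C1, C2 and C4, the last on 13 UMIs, and in B-like barcodes it was 1.45%, 0.118% and 0% in C1, C3 and C4.

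Per barcode, 1355 of 2376 macrophage-like barcodes of C1 held UMIs of Fcgr2b and of at least 1 activating receptor, 880 held activating receptors without Fcgr2b, and 35 held Fcgr2b alone. In C2 these numbers were 302, 82 and 14 of 430. Among 735 B-like barcodes of C3, 402 held Fcgr2b alone and 1 held both kinds. The monocyte-like levels behind the share of C3 changed with the minimum depth: with at least 1000 UMIs, Fcgr1 was 171 CPM rather than 101 and Fcgr2b 220 CPM rather than 409.

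**Figure D3:**
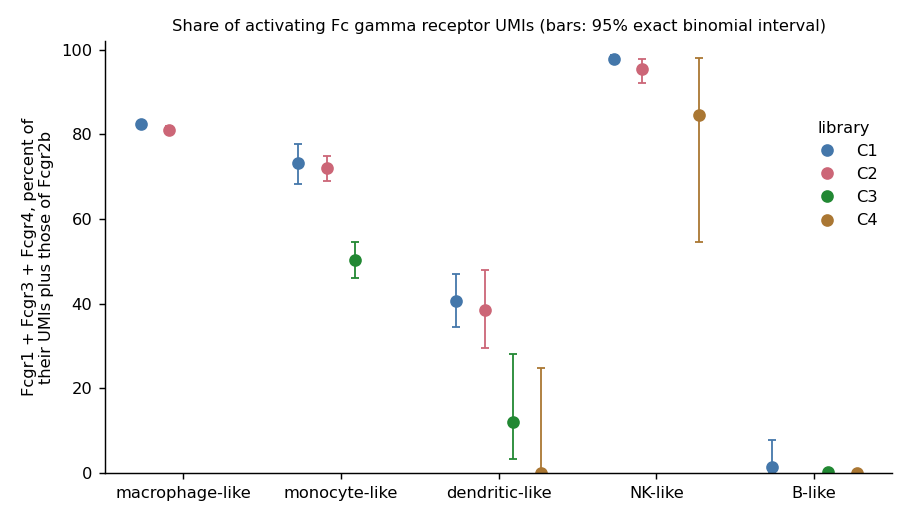
Share of Fcgr1, Fcgr3 and Fcgr4 UMIs among their UMIs plus those of Fcgr2b (y axis, percent) in 5 classes (x axis), 1 point per library, with 95% exact binomial intervals. The points lie at 81.1 to 82.6% in macrophage-like barcodes, 84.6 to 97.9% in NK-like and 0 to 1.45% in B-like ones.

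NK-like barcodes carried Fcgr3 and Fcer1g and little of the other members. Fcgr3 was at 103 CPM (97.1 to 110) in C1, 68.3 CPM (59.5 to 77.9) in C2 and 53.8 CPM (26.9 to 96.2) in C4, and the interval of C4, from 11 UMIs, overlapped that of C2 and ended below that of C1. A UMI of Fcgr3 was found in 43.2%, 35.4% and 30.3% of barcodes, or 25.4%, 15.9% and 21.2% after thinning, against 0.452%, 0.670% and 0.752% of T-like barcodes of the same libraries. Barcodes with at least 50 and under 200 UMIs had 35.8 CPM of Fcgr3 in C1 and 18.6 CPM in C2. Fcer2a and Fcmr had no UMI in NK-like barcodes of C1 and C2, and Fcmr had 2 in C4.

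The NK-like UMIs of Fcgr1, Fcgr2b and Fcgr4 in C1 lay mostly in cluster 25, with 20 barcodes of C1, a median depth of 13282 UMIs over libraries and a mean doublet score of 0.194. Without it, Fcgr1 in NK-like barcodes of C1 was 0.483 CPM rather than 2.83, Fcgr2b 0.580 CPM rather than 2.26 and Fcgr4 0.290 CPM rather than 2.07, while Fcgr3 was 98.8 CPM rather than 103. NK-like barcodes with Gzmc or Itga1, genes of tissue-type NK cells and innate lymphoid cells of group 1, had more Fcgr3 than those without, 110 against 60.9 CPM in C1. In C2 the levels were 72.4 and 51.7 CPM, with overlapping intervals. Fcer1g followed the same order, with 3265 against 2615 CPM in C1 and 3233 against 2575 CPM in C2.

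Fcer2a and Fcmr were confined among the 5 classes to B-like barcodes, apart from at most 2 UMIs of Fcmr in any other class and library. Fcmr was at 670 CPM (588 to 761) in C1, 501 CPM (483 to 519) in C3 and 1040 CPM (1018 to 1061) in C4. Fcer2a was at 282 CPM (229 to 342) in C1, 309 CPM (296 to 323) in C3 and 574 CPM (558 to 590) in C4. A UMI of Fcmr was found in 85.5%, 88.0% and 92.2% of B-like barcodes in C1, C3 and C4, and one of Fcer2a in 56.5%, 71.6% and 81.3%. After thinning the shares were 80.4%, 72.8% and 89.0% for Fcmr and 50%, 56.0% and 76.8% for Fcer2a. In T-like barcodes of C3 and C4 the shares were 0.379% and 0.407% for Fcmr and 0.310% and 0.251% for Fcer2a, at median depths of 5372 and 5989 UMIs against 5319 and 3894 in B-like ones.

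Of the 3 members with at least 50 UMIs over the B-like barcodes of C3 and C4, 1 passed 2-fold, Fcmr, which was 2.08-fold higher in C4. With a minimum of 1000 UMIs, with libraries clustered alone or with means over barcodes it did not pass, at log2 ratios of 0.99, 0.90 and 0.61. Of 9803 genes, 8.49% passed 2-fold in either direction and 3.52% were that far above in C4. Fcer2a was 1.86-fold higher in C4 and Fcgr2b 1.02-fold, against a median log2 ratio of 0.09 over all genes. The mix of B-like clusters differed between the libraries. Cluster 18, with Rgs13, a gene of germinal centre B cells, among its leading genes, held 162 of 735 barcodes in C3 and 78 of 1932 in C4. Within cluster 2, which held 567 and 1824 barcodes, Fcmr was 1.46-fold higher in C4 and Fcer2a 1.57-fold, and 0 members passed 2-fold, where 4.29% of genes did.

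Cluster 18 had less of all 3 receptors than cluster 2 in the same library. For Fcmr the levels were 176 CPM (162 to 192) in cluster 18 and 796 CPM (766 to 828) in cluster 2 of C3, and 222 CPM and 1165 CPM in C4. Those of Fcer2a were 196 CPM (180 to 212) against 412 CPM (390 to 434) in C3 and 66.5 CPM (52.2 to 83.4) against 648 CPM (630 to 666) in C4. Fcgr2b showed smaller differences, 118 CPM (106 to 131) against 148 CPM (135 to 162) in C3 and 67.3 CPM (53.0 to 84.4) against 146 CPM (137 to 155) in C4. Within cluster 18, Fcer2a and Fcgr2b were higher in C3 than in C4, the reverse of the order of Fcer2a in cluster 2. Fcer2a there was 2.95-fold higher in C3 and was the 1 member past 2-fold, where 5.89% of genes were. Shares of barcodes with a UMI, without thinning, did not all follow this order. For Fcgr2b they were 72.2% in cluster 18 against 49.9% in cluster 2 of C3, and 43.6% against 41.8% in C4. For Fcer2a they were 72.8% against 71.6% in C3 and 46.2% against 83.1% in C4. For Fcmr they were 79.6% against 90.8% in C3 and 82.1% against 93.6% in C4. Median depth was 13744 UMIs in cluster 18 and 4027 in cluster 2 over all libraries, and its part was not tested.

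**Figure D4:**
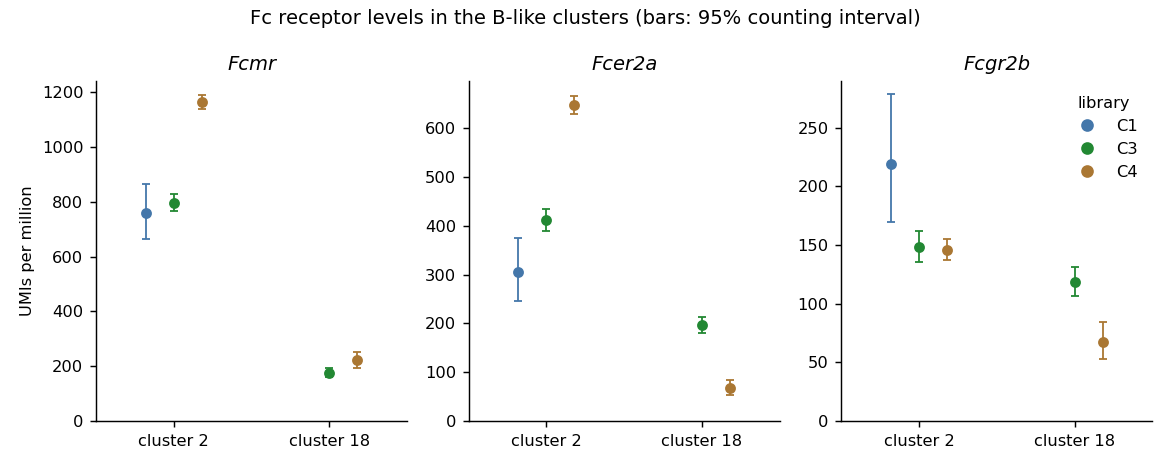
Levels of Fcmr, Fcer2a and Fcgr2b in UMIs per 1000000 (y axes, linear, starting at 0) in B-like clusters 2 and 18 (x axis), 1 point per library with at least 20 barcodes, with 95% Poisson intervals. In C3 and C4 each gene is lower in cluster 18 than in cluster 2, with Fcmr at 176 and 222 against 796 and 1165.

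Outside the 5 classes, plasma-like barcodes, antibody-secreting cells, had 38.3, 41.0 and 27.9 CPM of Fcgr2b in C1, C2 and C3 and at most 1 UMI of Fcmr and none of Fcer2a. Their Fcer1g was at 121, 69.9 and 0 CPM in the same libraries. Plasmacytoid-like barcodes had 1126 CPM of Fcer1g in C3 and 1082 CPM in C4, with 30.1 and 47.0 CPM of Fcgr2b from 8 and 10 UMIs, and no UMI of Fcgr1, Fcgr3 or Fcgr4 in either library.

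Of 12 other Fc receptor genes, 4 reached 50 CPM in at least 1 class and library. Fcgrt, the neonatal receptor that recycles IgG, was at 84.2 and 127 CPM in macrophage-like barcodes of libraries C1 and C2 and at 79.0 to 100 CPM in dendritic-like ones. Fcrla, a B cell protein that binds antibody inside the cell, was at 341, 224 and 311 CPM in B-like barcodes of C1, C3 and C4, and Fcrl1, a B cell coreceptor, at 92.9, 108 and 158 CPM. Fcer1a and Ms4a2, the other chains of the high-affinity IgE receptor of mast cells and basophils, had no UMI in the 5 classes. Between C1 and C2, 1 of 5 measured genes of this list was over 2-fold higher in C2 and 2 in C1, where 11% of all genes passed in either direction, and between C3 and C4 in B-like barcodes 0 of 6 passed 2-fold, where 8.49% of all genes did.

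All 15 genes of activating signalling reached 50 CPM in at least 1 class and library. Tyrobp, the DAP12 adaptor that serves like the gamma chain, was at 2302 and 2327 CPM in macrophage-like barcodes of libraries C1 and C2. Syk was at 77.7 and 85.1 CPM in macrophage-like and at 194 and 287 CPM in B-like barcodes of C3 and C4. In macrophage-like barcodes 3 of 15 were over 2-fold higher in C2 (Cd247, Fgr and Vav3) and 0 in C1, and the list's median log2 ratio was 0.13 against 0.14 over all genes, of which 11% passed 2-fold in either direction. The summed T cell markers in these barcodes were 96.5 CPM in C1 and 602 CPM in C2 and the summed NK markers 5.19 and 43.2 CPM, and their part in these counts was not tested. In B-like barcodes 2 of 14 were over 2-fold higher in C4 and 2 in C3, where 8.49% of all genes passed in either direction. The summed T cell markers there were 274 CPM in C3 and 42.6 CPM in C4, and their part was not tested.

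Of 7 genes of inhibitory signalling, 6 reached 50 CPM. In macrophage-like barcodes 0 of 7 passed 2-fold between C1 and C2, where 11% of all genes did. In B-like barcodes 0 of 6 measured genes passed between C3 and C4, where 8.49% of all genes did. Inpp5d, which encodes SHIP-1, was at 238 and 214 CPM in macrophage-like barcodes of libraries C1 and C2 and at 119 and 191 CPM in B-like barcodes of C3 and C4. Among 7 transcription factors, Spi1, which encodes PU.1, was at 418 and 464 CPM in macrophage-like, 768 to 815 CPM in monocyte-like and at most 10.5 CPM in NK-like barcodes. Of the listed antibody heavy chain constant genes, Ighm was at 570 and 835 CPM in B-like barcodes of C3 and C4. Ighg1 was at 352 and 42.0 CPM and Ighd, the constant gene of IgD, at 202 and 409 CPM. In all, 3 of 6 measured antibody genes were over 2-fold higher in C3 and 1 in C4, where 8.49% of all genes passed in either direction. The summed plasma cell markers in these B-like barcodes were 1450 CPM in C3 and 457 CPM in C4, and their part was not tested.

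The genes most like each receptor were found by Pearson correlation of log2(CPM + 1) over 16 sums of a class in a library. The points share libraries and classes, so the coefficients are descriptions. Fcgr1 was most like Fcgr4 (0.987), Lpl (0.984) and Cd300ld3 (0.979), and Fcgr4 most like Fcgr1, Cd300ld3 (0.974) and Laptm4a (0.973). Fcgr2b had Cyp4f18 (0.979), Tlr9 (0.977) and Ly86 (0.977), and Fcgr3 had Slc11a1 (0.949), Pld1 (0.948) and Hk3 (0.946). For Fcer1g these were Tyrobp (0.967), Apobr (0.954) and Sulf2 (0.942). Fcer2a was most like the B cell factor gene Pax5 (0.999), then Vpreb3 and Cr2 (both 0.998), and Fcmr most like Blk (0.996), Iglc2 (0.994) and Fcer2a (0.994).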

How the data were processed

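Single-cell expression was measured in CD45-sorted cells. The authors deposited 4 matrices of whole-number UMI counts per gene and barcode, not normalized, for all barcodes. Cell Ranger 4 is named per the file headers, and Cell Ranger 6.1.2, STAR 2.7.10a and mm10 per the submitters' processing notes. The labels' protocols name BD Rhapsody and the design text 10x. The other deposited files list features and barcodes.

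Scrublet, run on each library within scanpy 1.11.5, gave the doublet calls. Counts were scaled to 10000 per barcode, log-transformed, and clustered on 2000 variable genes without receptor V, D and J genes and Fc receptors (30 components, 15 neighbours, Leiden in leidenalg 0.10.2, resolution 1, seed 0). Clusters best matching a myeloid class were clustered again together and carry an m. A cluster took the class of highest scaled mean marker level, at least 0.25, with at least 3 markers each in at least 10% of barcodes. It stayed unnamed where its 10 leading genes held more markers of another class, or where depth was under 33.3% of its libraries' median and no leading gene was its marker. Knowing the clusters, this rule was changed 2 times; of 41 clusters some stayed unnamed. The members, marker lists and gene lists were chosen with earlier results of these data known. Named genes are the 7 members, the 3 most similar genes of each, among genes with at least 200 UMIs over sums of at least 50 barcodes, and list genes reaching 50 CPM, plus genes at 0 and Cd247, Fgr and Vav3 as counted.

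Level intervals are exact Poisson and share intervals Clopper-Pearson, at 95%. For 0 UMIs the upper limit is 3 counts. Thinned shares were taken after thinning each barcode to 3100 UMIs, the percentile 10 of depth. Ratios use genes with at least 50 UMIs over both libraries. The ratio step was tested on simulated data. Python 3.11.15, scipy 1.17.1, numpy 2.4.6, scikit-learn 1.9.0 and matplotlib 3.10.9 were used. Splits by cluster within a class were added after values were seen. A few list genes and a motif are not reported here.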

Additional observations from a re-analysis of the deposited data

Results flagged for a closer look

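Barcodes of unnamed clusters, which no comparison above uses, also held receptor UMIs. In C1 they had 65.0 CPM of Fcgr1, 57.3 CPM of Fcgr2b, 148 CPM of Fcgr3, 34.1 CPM of Fcgr4 and 927 CPM of Fcer1g. These came from clusters with macrophage or salivary genes among their leading genes: cluster 17, led by Klk1 and Igfbp7, had 1029 CPM of Fcer1g in C1, cluster m11, led by Smgc and Mucl2, had 2608 CPM, and cluster m18, led by Mrc1 and Pf4, had 2399 CPM of Fcer1g and 394 CPM of Fcgr2b. Of the sums over unnamed clusters that hold more than 3 UMIs, the highest was 0.162 CPM for Fcer2a, in C3 from 7 UMIs, and 0.9 CPM for Fcmr, in C4 from 4 UMIs. As only sums of more than 3 UMIs were kept for Fcer2a and Fcmr, both exceed the limit for a count of 0 by selection. Barcodes with at least 50 and under 200 UMIs had more, 48.5 CPM of Fcer2a in C3 and 198 CPM of Fcmr in C4, from 15 and 17 UMIs. The C1 values of the other receptors lay above those of such barcodes of C1, which had 35.8 CPM of Fcgr3 and 284 CPM of Fcer1g. The source of these UMIs was not tested, and no control sample was identified among the libraries.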

How the results depend on the processing

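No paired analysis was possible because no library could be tied to a sample or a replicate number. The numbers of members highest in a myeloid class or in B-like barcodes stayed within 1.5 times under every alternative that gave a value: in C2 the myeloid number was 4 rather than 5 with means over barcodes, and in C4 it has no value with libraries clustered alone. Free RNA could not be subtracted in C3 and C4, whose low-UMI barcodes held under 1000 UMIs of the genes used. The number of members past 2-fold between C1 and C2 was 2 rather than 1 with the top 5% of doublet scores removed and with libraries clustered alone. It was 0 within clusters m1 and m4. In m4 the log2 ratio of Fcgr4 was -0.41, opposite in sign to the class as a whole. The 2 intervals overlapped there, and the C2 level rested on 15 UMIs, so the direction in m4 is not settled. Between C3 and C4 the number was 0 rather than 1 with a minimum of 1000 UMIs, with libraries clustered alone, with means over barcodes and within cluster 2. The causes were not tested. Of the levels resting on at least 50 UMIs, 2 of 44 moved over 1.5 times with the minimum of 1000 UMIs, both in monocyte-like barcodes of C3, and 1 of 43 with libraries clustered alone, Fcgr3 in dendritic-like barcodes of C1 (173 rather than 104 CPM). None of these levels moved that far with at most 5% mitochondrial UMIs, with the receptors kept among the clustering genes, with the top doublet scores removed, with means over barcodes or with free RNA subtracted. Small classes and the unmapped libraries limit what can be read from the values.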

Other observations

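Cluster 0, which scored highest for T markers but stayed unnamed, held 4509 barcodes of C3 and had 5.80 CPM of Fcgr2b (5.10 to 6.57) from 248 UMIs, 1.17 CPM of Fcgr3 and no UMI of Fcgr1. T-like barcodes of C3 had 2.30 CPM of Fcgr2b (1.71 to 3.03). In B-like cluster 24, with 30 barcodes of C4 and a median depth of 1559 UMIs over libraries, Fcgr2b stood at 443 CPM (274 to 677), Fcer2a at 844 CPM (603 to 1149) and Fcmr at 295 CPM (161 to 496). The other B-like clusters of C4 had 67.3 and 146 CPM of Fcgr2b.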
